A study of Homo sapiens with 115 samples.

Results

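The CDK inhibitors of the CIP and INK4 families were followed through a radiation-tolerant persister (RTP) state of HCT116 colorectal cancer cells. The members were chosen by name, as the genes CDKN1A, CDKN1B and CDKN1C of the CIP family, CDKN2A, CDKN2B, CDKN2C and CDKN2D of the INK4 family, and CDKN3, which carries a CDK inhibitor symbol but encodes a phosphatase. All 8 were found among the 43386 gene entries of the count table, and all 8 were among the 19894 genes tested. Single cells were picked under a microscope and each was sequenced as full-length cDNA, and by the sample labels 72 are p53+/+ and 43 are p53-/-. The text of the study counts fewer p53+/+ and more p53-/- cells than the labels do, so the line of a few cells is in doubt, and which cells these are is not stated. Each of the 5 stages was sampled in a p53+/+ form and a p53-/- form of HCT116, derived by homologous recombination.

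Unirradiated cells are written [N] (day 0, 6 p53+/+ and 7 p53-/- cells). Pre-budding giant RTP cells are [P] (day 7, 6 and 11 cells), and giant RTP cells that were budding are [B] (day 10, 28 and 8 cells). Progeny newly budded from them are [S] (day 10, 21 and 9 cells), and cells of the repopulated colonies are [R] (day 30, 11 and 8 cells). Every irradiated stage had received 8 Gy. The sample labels give this dose for [N] as well, whereas the methods of the study treat [N] as untreated, and [N] was taken so here. HCT116 is an established line, and the forms compared are single clones, so a difference between them is also a difference between clones. The labels do not say whether cells of a stage came from separate cultures.

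Progress through the cell cycle is driven by cyclin-dependent kinases (CDKs), which are active once bound to a cyclin. INK4 proteins bind CDK4 and CDK6 and keep them from D-type cyclins, while CIP proteins bind assembled complexes and chiefly block CDK2. When CDKs are held inactive, the retinoblastoma protein stays unphosphorylated, E2F factors are restrained and the cell does not enter S phase. After ionising radiation, p53 activates transcription of CDKN1A, whose product p21 holds damaged cells in G1 and G2. CDKN3 encodes a dual-specificity phosphatase that removes the activating phosphate of CDK2 and CDK1, and its transcript is known to be abundant in dividing cells.

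Promoter sequence is shown for the most abundant CIP member and for CDKN3, because their levels had the lowest correlation of any pair of members across cells. RefSeq promoter windows (short stretches around a transcript start, GRCh38.p14) were at hand for 7 of the 8 members as 10 windows, and none was matched for CDKN1C. In each stretch capitals mark the letters searched for, on both strands and with overlaps allowed. CDKN3 (chr14:54396787-54396848, plus strand, 220 to 159 bases upstream of the RefSeq start and before the first base of the annotated gene) holds a CCAAT box and a cell cycle homology region (CHR, TTTGAA, here read from the minus strand). CDKN1A (chr6:36678604-36678683, plus strand, 110 to 31 bases upstream of a RefSeq start, between exons of longer transcripts) holds GC boxes (GGGCGG).
CDKN3: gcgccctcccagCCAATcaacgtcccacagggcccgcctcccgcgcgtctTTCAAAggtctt
CDKN1A: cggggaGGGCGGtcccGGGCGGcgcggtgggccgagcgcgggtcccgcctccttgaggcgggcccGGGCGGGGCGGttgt
The CHR letters were found in 1 of the 10 windows, that of CDKN3, and in 15.2% of all 35116 human windows. CCAAT was present in 4 windows, 1 each of CDKN1B, CDKN2C, CDKN2D and CDKN3, against 34.6% of all windows. An E2F site (GGCGGGAA) was present in 1 window of CDKN2C against 3.16% of all. A GC box was present in 7 windows of 6 members against 45.0% of all. The full p53 response element had no match in the 10 windows and had one in 0.0285% of all windows. These matches describe letters in short windows and do not show that a factor binds there.

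All values are counts deposited per gene and cell, given here per 1000000 counts of the cell (CPM). Totals ranged from 4056329 to 100173192 counts per cell with a median of 34238237, and 1 count at the median total is worth 0.0292 CPM. Libraries carried no molecular identifiers, so a count is a read and not a molecule, and floors cover counting error only. The epithelial genes EPCAM, KRT8, KRT18 and KRT19 had counts in every cell, CDX2 in all but 8 and CDH1 in all but 4, while VIL1 had a count in 1 cell. Of 8 markers of other cell types, COL1A1 was counted in 93 cells with group medians of 0.781 to 6.36 CPM. VWF was counted in 22 cells (up to 14.95 CPM), PECAM1 in 20, CD79A in 16 and COL3A1 in 11, with group medians of 0 to 0.233 CPM. PTPRC and COL1A2 were each counted in 2 cells, and CD3E had no count, which allows up to 0.0205 CPM over the shallowest group. MDM2, a p53 target used to check the lines, was lower in p53-/- cells at a log2 difference of -0.96 (SE 0.22, adjusted p = 0.101, edgeR). In unirradiated cells it ranged from 22.55 to 58.45 CPM in p53+/+ and from 22.92 to 78.36 in p53-/- cells, so it does not tell the lines apart there.

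Cells of one line at one stage are not independent replicates, so counts were summed into 10 sums, 1 per stage and line. A stage is then compared over its 2 lines, and the lines over the 5 stages, with edgeR's quasi-likelihood test and Benjamini-Hochberg adjustment over 19894 genes. A gene was called at an adjusted p under 0.05. Values of single cells are given as a description, with no p.

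Levels differed widely between members. Per kilobase of canonical transcript, the median over all cells was 234 CPM for CDKN1A, 93.3 for CDKN3 and 50.03 for CDKN2A. CDKN2D followed at 12.5, and the other members lay at 2.05 (CDKN1B), 1.59 (CDKN2C), 1.22 (CDKN2B) and 0.363 (CDKN1C) CPM per kilobase. CDKN1A had a count in every cell, and CDKN2A was without one in 1 cell, CDKN3 in 2 and CDKN2D in 3. CDKN2B was counted in 94 cells, CDKN1C in 88, CDKN1B in 81 and CDKN2C in 79. Within a group the coefficient of variation over cells went from 0.176 to 0.792 for CDKN2A but from 0.592 to 2.19 for CDKN1B, so CDKN2A varied less between cells.

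CDKN1A (chromosome 6, 36676460 to 36687337, plus strand, GRCh38, 3 exons in the canonical transcript) was low before irradiation in both lines and far higher afterwards in the p53+/+ line. In p53+/+ [N] cells it lay between 35.6 and 255 CPM with a median of 72.4. The [P] cells of this line ranged from 921 to 3850 CPM with a median of 2435, a ratio of medians of 33.7. Every one of the 6 [P] cells was therefore above every one of the 6 [N] cells. When cells were thinned to one total, 3 of these 6 [N] cells were deep enough to stay, with a median of 43.7 CPM. Such a complete separation was seen in 5.41% of the 13669 genes with a mean of at least 1 CPM and counts in at least 12 cells. In this comparison 2 of the 8 members separated, CDKN1A upwards and CDKN2A downwards.

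In the p53+/+ line, [B] cells held 145 to 5414 CPM of CDKN1A with a median of 1485. The [S] progeny held 141 to 3555 CPM with a median of 641. Repopulated [R] cells held 169 to 2483 CPM with a median of 1145. Most cells of each group lay outside the [N] range, since 26 of 28 [B], 16 of 21 [S] and 10 of 11 [R] cells were above the highest [N] cell. From highest to lowest the medians stood in the order [P], [B], [R], [S] and [N], but ranges of [B], [S] and [R] overlapped, with 0 [S] cells above the [B] range and 0 [R] cells outside the [S] range.

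In the p53-/- line the CDKN1A median was lower than in the p53+/+ line at every stage but [N]. At [N] it ranged from 25.96 to 131 CPM with a median of 83.8, and 6 of the 7 cells lay within the p53+/+ range. The [P] cells of the p53-/- line ranged from 102.9 to 504 CPM with a median of 280, a ratio to [N] of 3.34, and 9 of 11 were above the highest [N] cell. All 11 lay below the lowest p53+/+ [P] cell, a separation between lines seen in 0.768% of genes. Later stages were lower, with [B] from 36.5 to 2146 CPM (median 210), [S] from 3.42 to 367 (median 110) and [R] from 50.1 to 407 (median 100). The [S] and [R] medians of this line were 1.31 and 1.19 times its [N] median, and 2 of 8 [R] cells exceeded the [N] range.

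**Figure D1:**
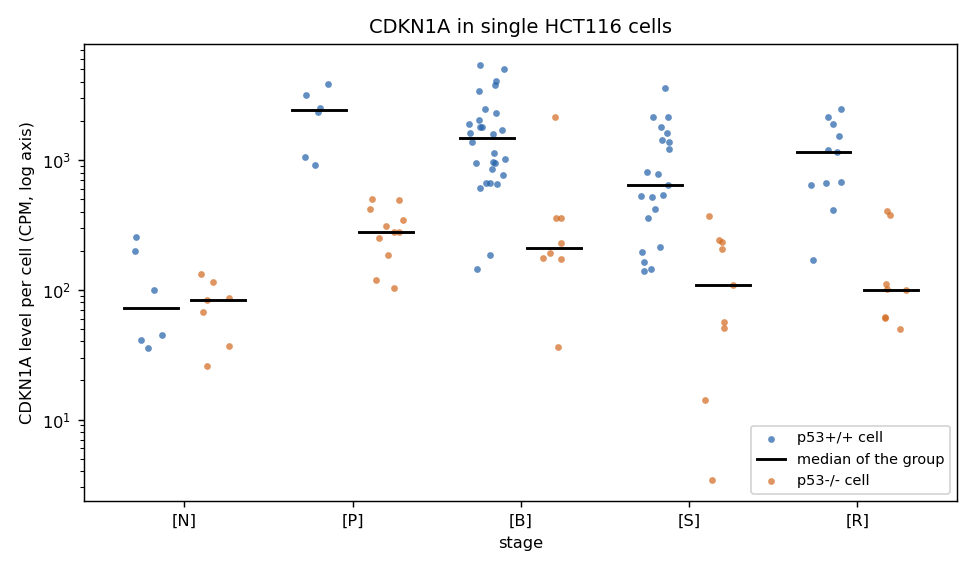
CDKN1A in each cell, in CPM on a log axis, by stage and line, with each point a cell and the bar the group's median. The 6 p53+/+ [P] cells lie between 921 and 3850 CPM, above all 11 p53-/- [P] cells, and 1 p53-/- [B] cell stands alone at 2146 CPM.

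A single p53-/- [B] cell held 70.2% of the CDKN1A counts of its group. It had 2146 CPM, where the next cell of the group had 358 and the next highest cell of the whole line 504. The same cell had 0.753 CPM of MKI67 and 9.55 CPM of CDKN3, and its MDM2 was 86.6 CPM. Without it the CPM of the group's sum was 225 in place of 605, so the p53-/- [B] sum of CDKN1A rests on that cell.

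Over both lines, CDKN1A was higher in [P] than in [N] by 4.09 on the log2 scale (SE 1.43, adjusted p = 0.347, edgeR) and in [B] by 3.93 (SE 1.42, adjusted p = 0.190). Sums of [S] and [R] were above [N] by 2.72 (SE 1.34, adjusted p = 0.409) and 3.07 (SE 1.36, adjusted p = 0.577). None of these passed the threshold. The size of the difference was unequal between lines, with 4.87 in p53+/+ and 1.91 in p53-/- for [P] versus [N], and 4.52 and 2.80 for [B] versus [N]. With the line as a replicate block, [B] versus [N] passed for CDKN1A at 3.29 (adjusted p = 0.0379, edgeR), where this fit called 3.4% of all genes and the fit without a block 0.658%. The 2.80 rests on the p53-/- [B] sum of which 1 cell held 70.2%, and the fit with a block was not rerun without that cell. CDKN2C passed too under the block, and the call of no member changed in any other comparison.

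Between the lines, CDKN1A was lower in p53-/- cells by a log2 difference of -2.33 (SE 0.45, adjusted p = 0.0669, edgeR), with p53-/- medians below p53+/+ medians at 4 of 5 stages. The ratio of medians was 0.115 at [P], 0.142 at [B], 0.171 at [S] and 0.0875 at [R], and it was 1.16 at [N]. Leaving out the single high [B] cell, an alternative chosen after seeing the data, gave -2.66 (adjusted p = 0.0463). Without the p53+/+ or the p53-/- [N] sum the difference was -2.82 (adjusted p = 0.0324) or -2.81 (adjusted p = 0.0340), so 1 sum or 1 cell set the side of the threshold. The interaction asked whether [P], [B] and [S] against [N] and [R] differed between lines, and for CDKN1A it was -1.05 (SE 0.91, adjusted p = 0.966). Its reference pools [N] and [R], where the ratios of medians were 1.16 and 0.0875. It therefore cannot decide whether the change of CDKN1A from [N] alone differed between lines.

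Cell names carry a prefix that groups cells into 19 sets, whose meaning is not stated. [N] shares 1 prefix with [P] and none with [B], [S] or [R], and [R] shares none with another stage. Sets and stages therefore cannot be told apart in [B], [S] or [R] against [N], or in [R] against [S]. The lines share no prefix at [R], so line and set cannot be told apart there. They share 1 prefix at [P], 1 at [B] and 3 at [S], and CDKN1A was lower in p53-/- cells in each. At [N] the lines share 2 prefixes, with CDKN1A higher in 1 and lower in 1. In the prefix shared by [N] and [P] the [P] median of CDKN1A was 2435 CPM against 35.6 in 1 p53+/+ [N] cell. In the p53-/- line it was 280 against 54.9. In prefixes holding both [B] and [S] cells, CDKN1A was lower in [S] in 7 of 7 p53+/+ prefixes and in 3 of 4 p53-/- prefixes. These sets are small, with 1 to 4 [S] and 1 to 6 [B] cells in a p53+/+ prefix. Each p53-/- prefix held 1 [S] cell against 1 or 3 [B] cells. In the p53+/+ prefix with 1 [S] and 1 [B] cell (143.8 and 665.3 CPM), the [S] cell has the letter G in its name. Elsewhere that letter marks [B] cells, so the stage of this cell is in doubt, and its label was followed. Over all [S] and [B] cells the log2 difference was -1.22 (SE 1.28, adjusted p = 1.00, edgeR).

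**Figure D2:**
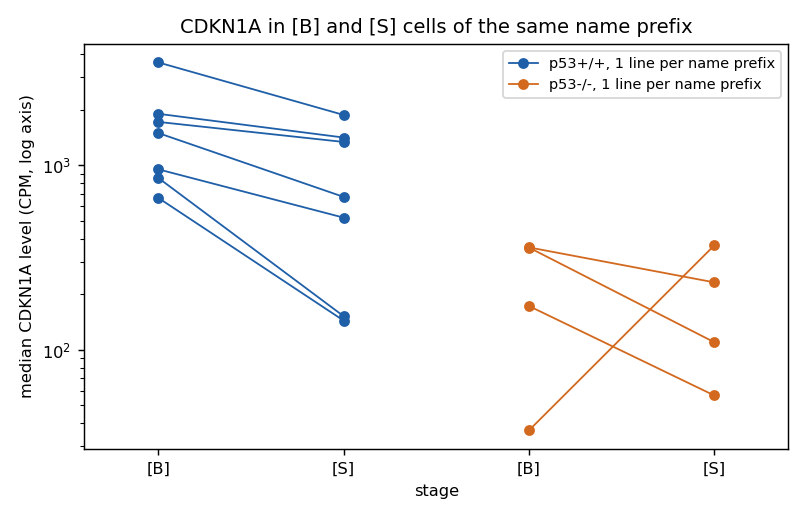
Median CDKN1A in [B] and in [S] cells of the same name prefix, in CPM on a log axis, with a line joining the medians of each prefix. The [S] median is below the [B] median in all 7 p53+/+ prefixes and in 3 of the 4 p53-/- prefixes. Some points are single cells, among them the [S] point of each p53-/- prefix. The p53+/+ [S] point at 143.8 CPM is a single cell whose name leaves its stage in doubt.

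CDKN1B (chromosome 12, 12685498 to 12722369, plus strand), which encodes p27, a brake on cyclin E with CDK2 in resting cells, was far rarer. Its group medians in p53+/+ cells went from 7.17 CPM at [N] through 5.01 at [P], 2.61 at [B] and 1.37 at [S] to 3.61 at [R]. In p53-/- cells they were 8.96, 13.8, 10.8, 5.30 and 9.91 CPM in the same order. Ranges overlapped between all stages, and the p53-/- median was the higher at each stage. The line difference was 1.07 (SE 0.34, adjusted p = 0.186, edgeR), and no stage comparison exceeded a log2 difference of 0.58 in size. The largest of these, [S] versus [B], was -0.58 (SE 0.73, adjusted p = 1.00).

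CDKN1C (chromosome 11, 2883213 to 2885775, minus strand) encodes p57, an imprinted CIP member of embryonic tissues. It was the rarest member, with p53+/+ medians of 0 to 0.777 CPM and p53-/- medians of 0.583 to 3.98. The p53-/- [P] cells were highest, from 0.0564 to 18.3 CPM, and 10 of 11 were above every [N] cell of their line (0.465 to 1.42 CPM), with a ratio of medians of 5.18 and 1 cell below them all. The table also lists an entry CDKN1C_1, which had 6146 counts against 7165, equal counts in 50 cells and a Spearman correlation of 0.976 with CDKN1C over cells. How reads were split between the entries is not stated, so the level of CDKN1C is uncertain. [P] versus [N] was 1.33 (SE 1.17, adjusted p = 0.699, edgeR), with -1.32 in p53+/+ and 2.37 in p53-/- cells.

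CDKN2A (chromosome 9, 21967752 to 21995301, minus strand) encodes p16INK4A and, in another reading frame, p14ARF, which restrains MDM2, and gene counts cannot separate them. It was the only INK4 member above 20 CPM in every group median, and it was lower after irradiation in the p53+/+ line. The p53+/+ [N] cells ranged from 75.1 to 127 CPM with a median of 114.9. The [P] cells ranged from 32.7 to 71.4 CPM with a median of 34.6, so the groups did not overlap. Medians stayed near this level at 43.2 in [B], 44.9 in [S] and 37.2 in [R], although 2 of 21 [S] cells exceeded the [N] range.

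In p53-/- cells the CDKN2A medians were 74.8 CPM at [N], 74.2 at [P], 52.2 at [B] and 73.9 at [S]. The [R] cells were lower, from 32.5 to 71.5 CPM with a median of 41.0, and 7 of 8 were below every [N] cell. Repopulated cells of both lines thus had about the same CDKN2A level, 37.2 and 41.0 CPM. Over both lines the log2 difference was -0.80 (SE 0.30, adjusted p = 0.362, edgeR) in [P], -0.93 (SE 0.30, adjusted p = 0.150) in [B] and -1.36 (SE 0.30, adjusted p = 0.563) in [R] versus [N]. In [S] versus [N] it was smaller, at -0.28 (SE 0.30, adjusted p = 0.732, edgeR), with -0.54 in p53+/+ and 0.03 in p53-/- cells. From [S] to [R] it was -1.08 (SE 0.30, adjusted p = 0.164), with -1.09 and -1.07 in the lines. DESeq2 on the same sums called CDKN2A in [R] versus [S] (adjusted p = 0.0333), where it called 7.03% of all genes, and in [R] versus [N] (adjusted p = 0.00813), where it called 2.08%.

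CDKN2B (chromosome 9, 22002903 to 22009305, minus strand), which encodes p15 and is known as a target of TGF-beta signalling, lies 7601 bases from CDKN2A. Its 6403 bases fall wholly within the span of the antisense gene CDKN2B-AS1. Overlap of their exons was not checked and the counting is not stated to use strand, so some reads of these genes may be mixed. In p53-/- cells its median was 3.25 CPM at [N], 4.70 at [P], 15.3 at [B], then 12.6 at [S] and 0.0723 at [R]. In p53+/+ cells it was 1.93, 4.48, 4.04, 3.17 and 4.79. The [N] ranges reached 0 in both lines, and 11 of 28 p53+/+ and 5 of 8 p53-/- [B] cells were above the [N] range.

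For [B] versus [N] CDKN2B differed by 2.28 (SE 0.67, adjusted p = 0.122, edgeR), with 2.10 and 2.40 in the lines, and for [S] versus [N] by 2.05 (SE 0.66, adjusted p = 0.274). DESeq2 called both, at adjusted p = 0.00683 and 0.0345, where it called 10.8% and 4.82% of all genes. CDKN2B-AS1 had group medians of 0 to 1.16 CPM, highest in p53+/+ [N] and not in [B] or [S]. From [S] to [R] the difference of CDKN2B was -1.61 (SE 0.65, adjusted p = 0.284, edgeR), with -0.40 in p53+/+ and -3.13 in p53-/- cells.

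CDKN2C (chromosome 1, 50960745 to 50974634, plus strand) encodes p18, an INK4 protein whose gene is known as an E2F target. It was lower in budding RTP cells than in [N] in both lines. In p53+/+ cells it ranged from 2.09 to 12.2 CPM in [N] (median 7.30) and from 0 to 9.48 in [B] (median 0.148), where 22 of 28 cells were below every [N] cell. In p53-/- cells it ranged from 9.22 to 24.4 CPM in [N] (median 13.6) and from 0 to 9.53 in [B] (median 2.70), where 7 of 8 were below every [N] cell. The log2 difference was -2.63 (SE 0.87, adjusted p = 0.156, edgeR), and it was -2.63 in each line. With the line as a replicate block it passed at -2.63 (adjusted p = 0.0197).

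Pre-budding cells differed by line in this gene. The p53-/- [P] cells had a CDKN2C median of 14.2 CPM, near that of [N], and the p53+/+ [P] cells one of 0.820. Ranges met, from 0 to 37.3 and from 0 to 13.7 CPM, and 6 of 11 p53-/- cells were above all p53+/+ cells. In [S] the medians were 0 CPM in p53+/+ and 0.548 in p53-/- cells (4.02 over the 8 p53-/- cells left after thinning), and in [R] they were 2.59 and 6.45. Over the 5 stages CDKN2C was higher in the p53-/- line by 1.42 (SE 0.28, adjusted p = 0.0710, edgeR), and by DESeq2 it was called (adjusted p = 4.6e-05), as were 8.22% of all genes.

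CDKN2D (chromosome 19, 10566460 to 10569059, minus strand) encodes p19, the INK4 protein known to vary with the cell cycle and to respond to DNA damage. Its p53+/+ medians were nearly level, from 15.4 CPM at [N] and 20.8 at [P] to 15.2 at [B], 14.5 at [S] and 15.3 at [R]. In p53-/- cells they were 18.4, 43.0, 26.6, 31.2 and 17.7, and 9 of 11 [P] cells exceeded all [N] cells. [P] versus [N] was 1.10 (SE 0.43, adjusted p = 0.374, edgeR), with 0.83 and 1.27 in the lines. The line difference was 0.55 (SE 0.20, adjusted p = 0.251).

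**Figure D3:**
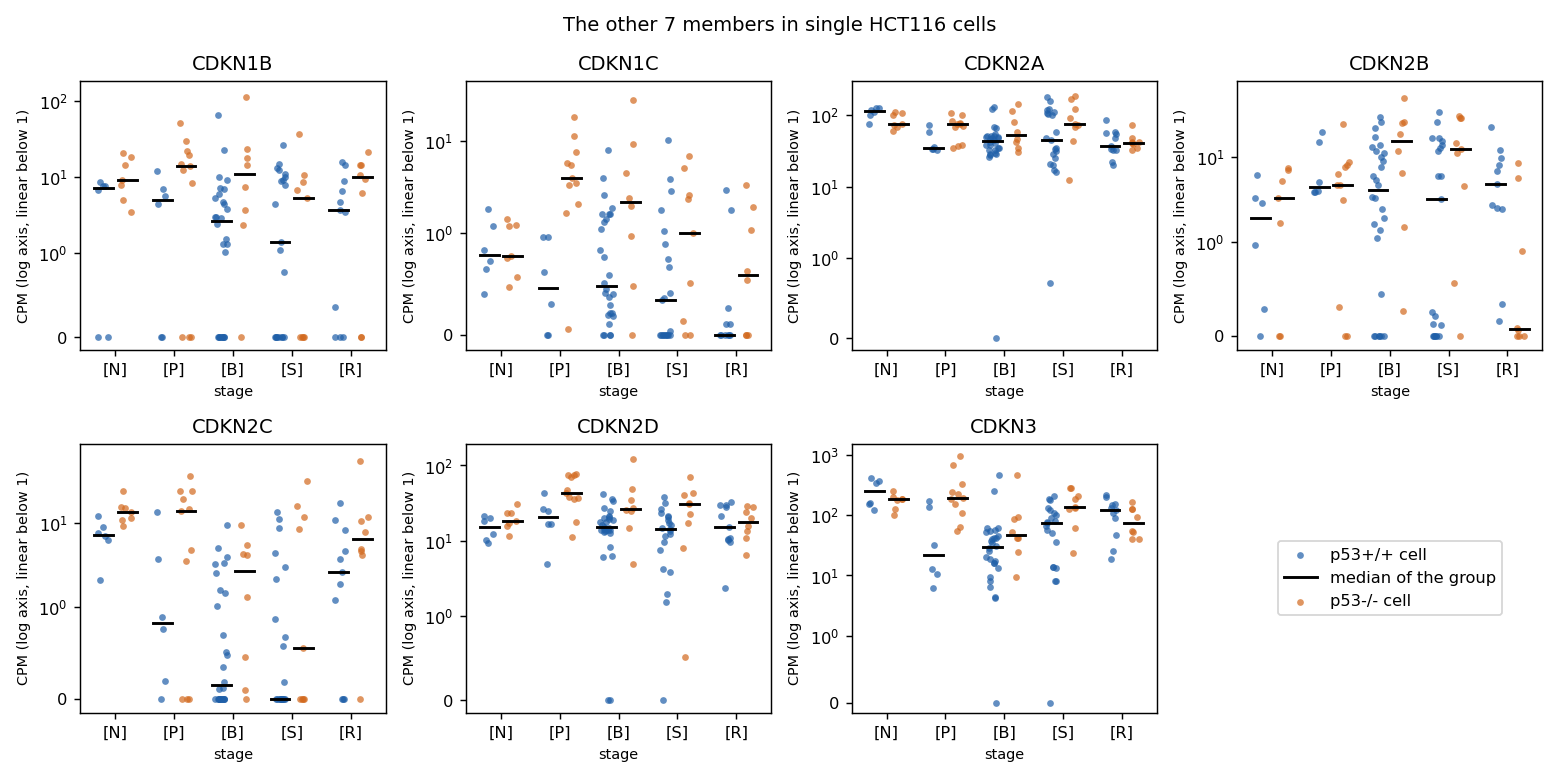
The other 7 members in each cell, in CPM on log axes that are linear below 1, by stage and line, with points for cells and bars for medians. CDKN2A and CDKN3 are counted in nearly all cells, while CDKN1B, CDKN1C, CDKN2B and CDKN2C have many cells at 0.

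CDKN3 (chromosome 14, 54396849 to 54420218, plus strand) was abundant in unirradiated cells of both lines. Its medians were lowest at [P] in p53+/+ and at [B] in p53-/- cells. The scaled sums were lowest at [B] in both lines, at 50.8 CPM in p53+/+ (75.8 at [P]) and 78.7 in p53-/- cells. In p53+/+ cells the [N] range was 121 to 409 CPM (median 249). The [P] range was 6.17 to 174 CPM (median 22.2), with 4 of 6 cells below all [N] cells, and the [B] range was 0 to 464 (median 29.9), with 26 of 28 below. Progeny had a median of 74.0 CPM and repopulated cells one of 122, so the p53+/+ medians were higher at each stage from [P] to [R] and below that of [N] throughout.

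In p53-/- cells the [N] range was 102.3 to 248 CPM (median 185) and the [P] range was 54.8 to 960 (median 195). The [B] cells were lower, with a median of 46.9 CPM and 7 of 8 cells below all [N] cells, the exception being a cell at 458 CPM. The [S] median was 139 CPM, and the [R] median was 74.6 with 5 of 8 cells below all [N] cells. At [P], CDKN3 was therefore 8.80 times higher by medians in p53-/- than in p53+/+ cells, with 7 of 11 cells above the whole p53+/+ range.

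Over both lines CDKN3 differed from [N] by -1.75 in [B] (SE 0.58, adjusted p = 0.156, edgeR), by -0.26 in [P] (SE 0.56, adjusted p = 0.902) and by -1.28 in [R] (SE 0.57, adjusted p = 0.577). [B] versus [P] was -1.49 (SE 0.57, adjusted p = 0.847). By line, [P] versus [N] was -1.82 in p53+/+ and 0.79 in p53-/- cells. The interaction of line with the stages [P], [B] and [S] was 1.61 (SE 0.45, adjusted p = 0.955, unadjusted p = 0.0076), the only member under 0.05 before adjustment, where 4.49% of all genes were.

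**Figure D4:**
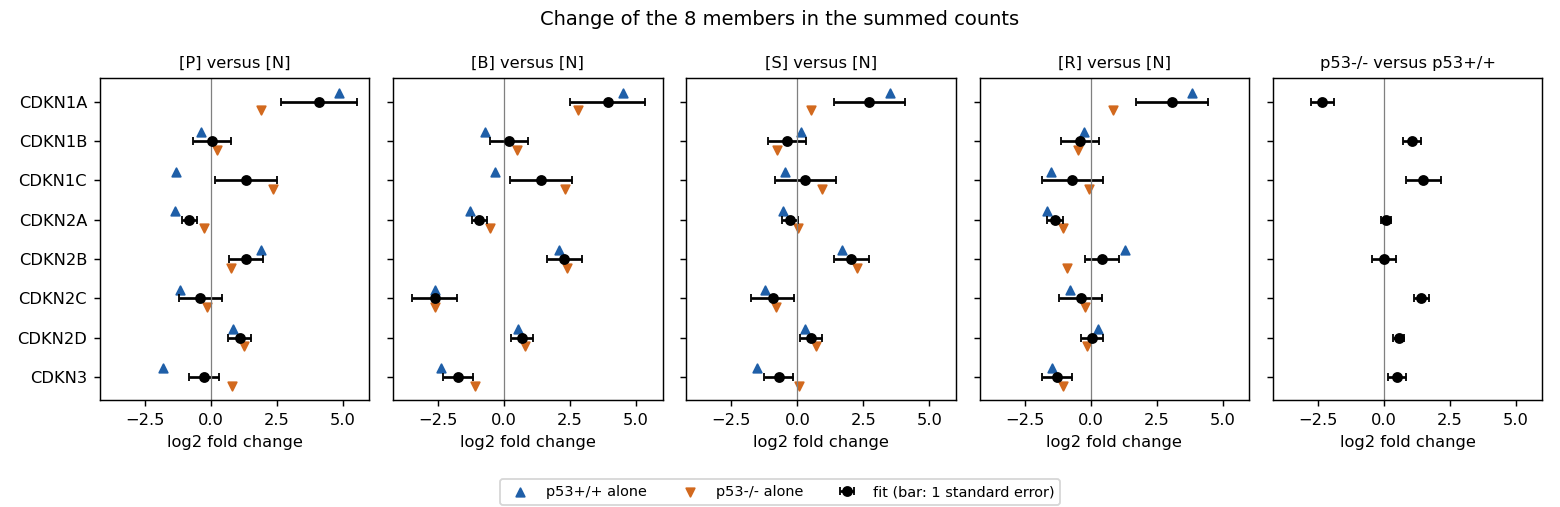
Log2 fold changes of the 8 members against [N] for the 4 irradiated stages and between the lines, with black points and bars for the fit over both lines and 1 SE, and triangles for each line alone. CDKN1A is highest in the 4 comparisons with [N], CDKN2C and CDKN3 are lowest for [B] against [N], and without a block no member was called by edgeR.

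Read as a family, no member passed edgeR's adjusted threshold without a block in any of the 9 comparisons, and 2 passed with it in [B] versus [N]. For [P] versus [N], 0.0201% of all genes were called, 3 members were under an unadjusted p of 0.05 (11.9% of all genes were), and DESeq2 called 0 where it called 3.99% of all genes. For [B] versus [N], the percentage of genes called was 0.658%, and 5 members were under 0.05 (18.5% of all genes). DESeq2 called 4 there, CDKN1A, CDKN2B, CDKN2C and CDKN3, and 10.8% of all genes. For [S] versus [N] the values were 0.0704%, 1 member (13.3%) and 1 call by DESeq2 (4.82% of all genes), and for [R] versus [N] they were 0.0%, 2 members (8.6%) and 1 call (2.08%).

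The remaining comparisons were counted in the same way. In [B] versus [P], 0.0% of genes were called, 2 members were under 0.05 (5.18% of all genes) and DESeq2 called 0 (0.648% of all genes). In [S] versus [B], 0.0% of genes and 0 members were called, 0 members were under 0.05 (4.19%), and DESeq2 called 0 (0.281% of all genes). In [R] versus [S], 0.0201% were called, 2 members were under 0.05 (15.1%) and DESeq2 called 1 (7.03%). Between lines, 0.206% were called, 4 members were under 0.05 (13.9%) and DESeq2 called 2, CDKN1B and CDKN2C (8.22% of all genes). For the interaction 0.0% were called and 1 member was under 0.05, and DESeq2 called 0 (1.12% of all genes).

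The members were not on one side of 0. In [B] versus [N], 5 of 8 were above 0, and their median was 0.44 against 0.20 over all genes. In [P] versus [N], 5 of 8 were above 0 with a median of 0.57 against 0.15. In [R] versus [N], 3 of 8 were above 0 with a median of -0.39 against 0.02. Between lines 7 of 8 were above 0, that is higher in p53-/- cells, with CDKN1A as the exception and a median of 0.53 against -0.0047. These 4 counts were the same with library size as the only scaling, and with the line as a replicate block 4 of 8 were above 0 against [N] for [P] as well as for [B].

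Across all cells, which share stage and line, CDKN1A and CDKN3 had the lowest Spearman correlation of the 28 member pairs, -0.565. CDKN1A with CDKN2A followed at -0.500 and CDKN1A with CDKN2C at -0.379. The highest were CDKN2A with CDKN3 at 0.467 and CDKN2C with CDKN3 at 0.447. Correlations of members with the total count of a cell ran from -0.0613 for CDKN1A to 0.237 for CDKN2C. Values are descriptions over cells of mixed stages and carry no test.

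**Figure D5:**
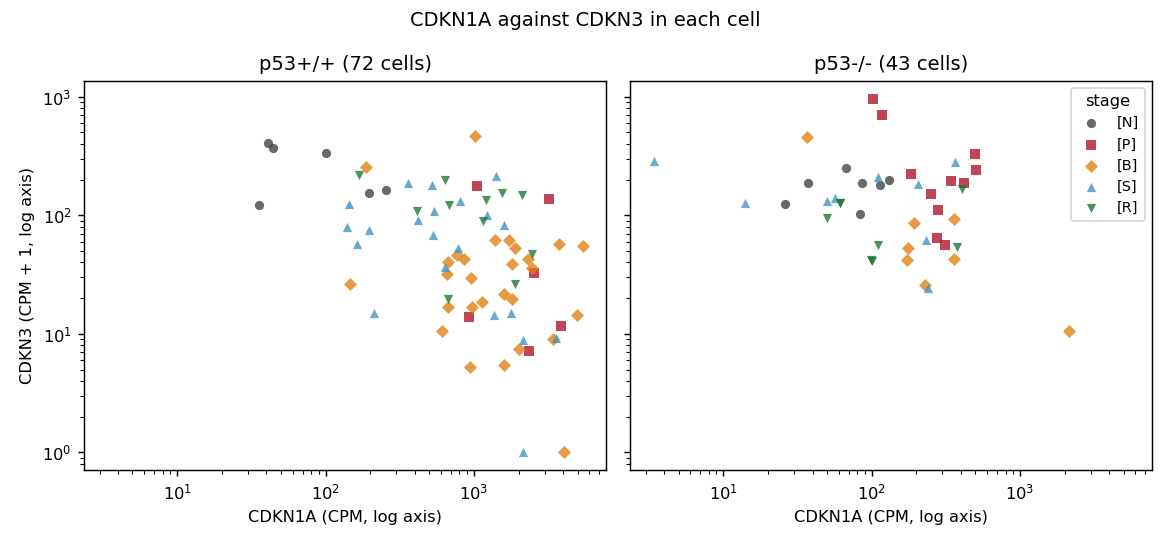
CDKN3 against CDKN1A in every cell, with CDKN1A in CPM and CDKN3 in CPM + 1 on log axes, a panel for each line, and colour and shape giving the stage. Cells high in CDKN1A tend to be low in CDKN3 over all cells (Spearman -0.565), and the p53+/+ unirradiated cells lie at the upper left.

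CDKN3 was read beside a sum of 16 proliferation genes (MKI67, TOP2A, the MCM2 to MCM7 helicase subunits and mitotic genes). Its median was 3340 CPM in p53+/+ [N], then 474.5 at [P], 641 at [B], 1109 at [S] and 3516 at [R]. The p53-/- medians of the sum were 4466, 2761, 1518, 3504 and 4331. Within p53+/+ groups, CDKN3 followed this sum over cells at a Spearman correlation of 0.943 in [P] (6 cells), 0.683 in [B] (28), 0.701 in [S] (21) and 0.855 in [R] (11). In p53+/+ [N] it was -0.943 over 6 cells. Among p53-/- groups it was 0.952 in [B] (8 cells) but between -0.571 and -0.318 in the other 4 groups.

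For CDKN1A the correlation with the proliferation sum was -0.544 in p53+/+ [S] and -0.473 in p53+/+ [R]. It was -0.133 in p53+/+ [B] and 0.0286 in p53+/+ [P], closer to 0 than in [S] and [R]. In p53-/- cells it was 0.655 in [P] (11 cells) but -0.517 in [S] (9), -0.214 in [B] (8), -0.0476 in [R] (8) and 0.0 in [N] (7). CDKN2C had a correlation of 0.303 to 0.771 in the 5 p53+/+ groups. Among the p53-/- groups it was 0.607 in [N] and 0.826 in [P] but -0.0238 in [B], -0.122 in [S] and -0.524 in [R].

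Genes whose pattern over cells was most like that of each member were ranked among 6729 or 6730 genes with a mean of at least 20 CPM. For CDKN1A over all cells they included BTG2 (0.801), an antiproliferative gene, GDF15 (0.799), a secreted stress factor, and CYFIP2 (0.795). Within p53+/+ cells they included DRAM1 (0.798), BTG2 (0.798), SERPINB5 (0.771) and CYFIP2 (0.761). Within p53-/- cells they were BTG1 (0.753), OPTN (0.753), TRNP1 (0.727), AIDA (0.719) and KCNK1 (0.705), and none of these was in the p53+/+ list. For all genes the median correlation with CDKN1A was 0.0198 and the 99th percentile 0.584.

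CDKN3 was followed most closely by H2AFZ (0.846), PTTG1 (0.836), STMN1 (0.828), PCLAF (0.810) and HMGB2 (0.795), where the 99th percentile was 0.671. PTTG1 encodes securin, which holds sister chromatids until anaphase. In p53+/+ cells NUF2 (0.879), CCNB2 (0.871) and BIRC5 (0.863) were among its nearest genes, and in p53-/- cells H2AFZ (0.812) and FKBP3 (0.792). CDKN2C was nearest to CENPA (0.709), KIF20A (0.675), CDK1 (0.653), NUSAP1 (0.650) and GTSE1 (0.647), of which CDK1 is the mitotic kinase and the centromere protein CENPA marks kinetochores.

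The other members had weaker neighbours. CDKN2A was nearest to MRPL11 (0.613), NUDT1 (0.558), PSMA7 (0.556), PHF19 (0.549) and CENPM (0.548). CDKN2B was nearest to GADD45A (0.548), a stress gene, and then to PARD6B (0.526), ABL2 (0.519), PICALM (0.506) and ATF3 (0.502). CDKN2D was nearest to SVIP (0.611) and PMM1 (0.525), CDKN1C to C12orf57 (0.546) and SVIP (0.506), and CDKN1B to ETV5 (0.499) and PPP2R5E (0.498).

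Of 11 measured kinases and cyclins that these inhibitors act on, 3 fell and 0 rose in [B] versus [N], where 0.452% of all genes fell. Of the 11, 2 were above 0, with a median log2 difference of -1.43 against 0.20 over all genes. CCNE2, a partner of CDK2 at S phase entry, fell by 3.31 (SE 0.42, adjusted p = 0.0155, edgeR). CCNB1, the mitotic cyclin, fell by 3.19 (SE 0.44, adjusted p = 0.0214), and CCNA2 fell by 2.53 (SE 0.46, adjusted p = 0.0457). CDK1 was at -2.48 (adjusted p = 0.0510). None of the 11 was called in [P] versus [N], where CCNB1 was at -2.18 (SE 0.42, adjusted p = 0.284).

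Among proliferation genes, 7 of 16 fell in [B] versus [N] and 0 rose, among them MCM4, which fell by 2.22 (SE 0.29, adjusted p = 0.0169, edgeR), CDC20, which fell by 2.59 (SE 0.39, adjusted p = 0.0253) and MCM3, which fell by 1.92 (SE 0.29, adjusted p = 0.0274). Their median was -2.13, and in [S] versus [B] it was 1.33 with 16 of 16 above 0 and 0 called. Of 10 genes for the turnover of CDK inhibitors, 2 fell in [B] versus [N]. SKP2, which recruits p27 for degradation, fell by 2.20 (SE 0.38, adjusted p = 0.0421), and DTL, the CUL4 receptor for p21, fell by 1.99 (SE 0.36, adjusted p = 0.0457). CUL1 was at -1.67 (adjusted p = 0.0639). With the line as a replicate block 5 cyclins and kinases, 14 proliferation genes and 3 turnover genes fell, where 2.2% of all genes did. With library size as the only scaling 2, 3 and 0 fell (0.171% of all genes). Leaving out the single [B] cell high in CDKN1A also left 2, 3 and 0 (0.141% of all genes). Leaving out any 1 of the 4 [N] or [B] sums leaves 1 sum in that stage. The falls of these lists were then no longer called, and neither was a fall of any other gene.

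Of 13 RB and E2F genes 0 were called in any comparison without a block. With it 1 fell in [B] versus [N], where 2.2% of all genes did. In [B] versus [N] 2 were above 0 with a median of -0.76, TFDP1, an E2F partner, was at -1.38 (SE 0.31, adjusted p = 0.0716, edgeR) and E2F1 at -1.28 (SE 0.36, adjusted p = 0.115). In [R] versus [S] 11 of 13 were above 0 with a median of 0.47, and RB1 itself was at 1.20 (SE 0.37, adjusted p = 0.193). E2F7, a repressor of E2F targets, was at -1.91 (SE 0.45, adjusted p = 0.546) in [B] versus [P].

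Other p53 targets were on the same side as CDKN1A. All 22 lay above 0 in pre-budding and in budding cells against [N], with medians of 0.78 and 1.20, and 0 were called in either. With the line as a replicate block 4 rose in [B] versus [N], where 1.2% of all genes did. BBC3, a proapoptotic gene, was at 3.11 (SE 0.64, adjusted p = 0.0602, edgeR) and PHLDA3 at 3.20 (SE 1.05, adjusted p = 0.155) in [B] versus [N]. Between lines 20 of 22 were below 0 and 2 fell, where 0.126% of all genes did, with a median of -0.97. GDF15 fell by 3.02 (SE 0.29, adjusted p = 0.0111). FDXR was at -1.67 (SE 0.31, adjusted p = 0.0604). Leaving out 1 sum gave 1 to 4 falling targets, with 4 without the p53+/+ [N] sum, 3 without the p53-/- [N] sum and 1 without any other. Of 19894 to 19973 genes tested, 25 fell with every sum in. Without those [N] sums 50 and 46 fell, and without any other sum 3 to 16, so the number of falling targets moved with that of all genes.

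Regulators known to act on CDK inhibitor genes showed no call in the comparisons between stages without a block, and with it 1 of 18 fell in [B] versus [N] and 1 in [R] versus [S], where the block called 3.4% and 0.382% of all genes. In [P] versus [N], 14 of 18 were above 0 with a median of 0.73, led by FOXO3 at 0.92 (SE 0.29, adjusted p = 0.318, edgeR), a factor that drives CDKN1B, and SMAD3 at 1.11 (SE 0.37, adjusted p = 0.331), which carries TGF-beta signals to CDKN2B. EZH2, the Polycomb methyltransferase that silences the CDKN2A locus, was at -1.78 (SE 0.49, adjusted p = 0.111) in [B] versus [N]. Of 11 transcripts near the members, 0 were called in any comparison without a block, and 1 fell in [B] versus [N] with it. SRSF3, beside CDKN1A, was at -1.43 (SE 0.31, adjusted p = 0.0713) and MTAP, beside CDKN2A, at -1.29 (SE 0.39, adjusted p = 0.130) in [B] versus [N], the former opposite in sign to CDKN1A.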

How the data were processed

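Single HCT116 cells were sequenced as full-length cDNA, and the authors deposited raw counts per gene and cell. Per the study's methods and processing notes reads were trimmed with fastp and aligned with HISAT2 (2.0) to GRCh38, and StringTie is named for quantification. Which tool made the counts, and whether it used strand, are not given in the sources used here. RSEM and Bowtie2 are named for FPKM values and DESeq2 for the study's own tests, and values from neither were used. Groups follow the sample labels, which give 72 p53+/+ and 43 p53-/- cells. The study's text counts the lines differently, and the cells in question could not be singled out, so no alternative leaves them out.

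Counts were summed per stage and line into 10 sums and tested with edgeR 4.0.16 (limma 3.58.1, R 4.3.3; robust quasi-likelihood, TMM) after filterByExpr with a minimum count of 10 and at least 1 count in 12 cells. Cells had 4056329 to 100173192 counts, and with 2 sums per stage their number also limits precision. The labels do not name separate cultures, so p-values of stage comparisons measure only the spread between the 2 lines, which are the replicates of a stage. For the line difference and the interaction the fit holds stage. Their p-values measure how the difference between the same 2 clones varied over the 5 stages, not a spread between independent clones. All sums of a line come from the same cell line, so the lines pair the samples. As a check, deviations of the lines correlated between stages at 0.074 to 0.216 over 10 stage pairs, and values with the line as a replicate block stand beside a result where they change a call.

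Alternatives were the block, DESeq2 1.42.0, scaling by library size alone, no filter, cells thinned to 15435056 counts (12 shallower cells left out), 40 sums per name prefix, leaving out cells missing from the study's supplementary tables of 3 comparisons, whose values were not used, and each sum left out in turn, where a lone sum is assumed to vary like those of other stages. Leaving out 1 [B] cell was added after seeing the data. Levels, correlations and figures used pandas 2.3.3, scipy 1.17.1, matplotlib 3.10.9 and numpy 2.4.6 under Python 3.11.15, with log2(CPM + 1) for correlations. Scripts were tested on simulated data.

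The text names all 8 members, the line check MDM2, the 5 genes nearest each member by Spearman correlation, and, per comparison, at most 4 of each pathway list, those of lowest p. Members and lists were chosen with earlier results of these data known. Some genes covered by this rule are not reported here.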

Additional observations from a re-analysis of the deposited data

Results flagged for a closer look

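In 11 of 48 combinations of a member with a group of 6 to 9 cells, or 22.9%, the highest cell stood far from the rest by Dixon's criterion. At either the highest or the lowest cell, chance meets it in about 1 of 20 groups of normally spread values. For the highest cell alone that rate is lower. Over all genes with a mean of at least 1 CPM and counts in at least 12 cells the share was 17.9% in the same groups, so the share among members is near that of all genes. Cells of one group are not independent samples.

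Of these, 5 lay in p53-/- [B], a group where 23.5% of all genes had such a cell. There CDKN1A reached 2146 CPM against 358.4 in the next cell of 8, CDKN3 458.2 against 92.33, and CDKN1B 113.5 against 23.25. CDKN2D reached 121.3 CPM against 48.11, and CDKN1C 28.08 against 9.142. They came from 3 cells. CDKN1A was highest in one of them, CDKN1B and CDKN3 in another, where CDKN1A was 36.5 CPM, and CDKN1C and CDKN2D in the remaining one.

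CDKN2C had such a cell in 4 groups. It reached 24.37 CPM against 15.63 in p53-/- [N] (7 cells), 32.12 against 16.2 in p53-/- [S] (9 cells) and 56.9 against 11.89 in p53-/- [R] (8 cells). In p53+/+ [P] (6 cells) it reached 13.7 CPM against 3.753. The other 2 were CDKN1B in p53-/- [S], at 36.2 CPM against 10.69, and CDKN2A in p53-/- [R], at 71.53 against 47.55.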

How the results depend on the processing

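edgeR without a block called 0 members in each of the 9 comparisons, and several alternatives called more. With the line as a replicate block 2 members were called for [B] against [N] (3.4% of all genes), and the block changed no other member's call. DESeq2 called 4 for [B] against [N] (10.8%), 1 for [S] against [N] (4.82%), 1 for [R] against [N] (2.08%), 1 for [R] against [S] (7.03%) and 2 between lines (8.22%). Without a filter on low counts the calls were 1 for [P] against [N] (CDKN1A, 1.2% of 33896 genes), 4 for [B] against [N] (3.76%), 1 for [S] against [N] (1.55%), 1 for [R] against [N] (0.549%), 1 for [B] against [P] (CDKN3, 0.549%) and 1 between lines (CDKN2C, 1.22%). Sums per name prefix called 1 for [B] against [N] (1.43%) and 1 between lines (CDKN1A, 6.47%), thinned cells 1 between lines (CDKN2C, 1.12%), and leaving out 1 [B] cell 1 between lines (CDKN1A, 0.494%). Leaving out each sum in turn gave 0 to 1 between lines. The cause of these shifts was not tested.

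Apart from leaving out sums, directions turned in 11 of 512 alternative values. With the line as a replicate block they were CDKN1A 0.24 for [B] against [P], CDKN1B -0.056 for [P] against [N] and -0.0063 for [B] against [N], and CDKN1C -0.030 for [S] against [N]. With prefix sums CDKN1B was -0.068 for [P] against [N] and CDKN2A 0.079 for [S] against [N]. CDKN1B for [R] against [S] was 0.0032 by DESeq2 and 0.17 by library size. CDKN2B between lines was -0.043 without a filter and -0.036 without 1 [B] cell, and thinned CDKN2A was 0.054 for [B] against [P].

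Leaving out sums turned the direction in 32 of 72 results, over these ranges. CDKN1A ran from -1.38 to 2.09 for [B] against [P], -1.95 to 2.66 for [R] against [S] and -2.56 to 0.45 for the interaction. CDKN1B ran from -0.86 to 0.62 for [P] against [N], -1.25 to 0.90 for [B] against [N], -0.72 to 0.15 for [S] against [N], -0.79 to 0.14 for [R] against [N], -1.30 to 1.12 for [B] against [P], -1.31 to 0.87 for [S] against [B], -0.40 to 0.30 for [R] against [S] and -0.032 to 1.03 for the interaction. CDKN1C ran from -1.12 to 2.19 for [P] against [N], -0.18 to 2.15 for [B] against [N], -0.31 to 0.70 for [S] against [N], -1.51 to 2.58 for [B] against [P] and -1.87 to 0.49 for [S] against [B]. CDKN2A ran from -0.51 to 0.0647 for [S] against [N], -0.38 to 0.19 for [B] against [P] and -0.051 to 0.23 for the lines. CDKN2B ran from -0.66 to 1.05 for [R] against [N], -0.84 to 0.20 for [S] against [B], -0.28 to 0.41 for the lines and -0.0843 to 2.10 for the interaction. CDKN2C ran from -1.70 to 0.29 for [P] against [N], -1.37 to 0.21 for [R] against [N], -0.44 to 1.45 for [R] against [S] and -0.0897 to 0.49 for the interaction. CDKN2D ran from -0.0597 to 0.28 for [R] against [N], -0.80 to 0.0911 for [B] against [P], -0.63 to 0.22 for [S] against [B] and -0.78 to 0.00266 for [R] against [S]. CDKN3 ran from -1.48 to 0.41 for [P] against [N].

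Library size as the only scaling moved the median of all genes by 0.14 for [P] against [N], 0.11 for [B] against [N], 0.16 for [R] against [N], 0.18 for [R] against [S], -0.13 for [S] against [B] and 0.11 between lines. DESeq2 called 7 cyclins and kinases, 13 proliferation genes, 4 turnover genes and 4 RB and E2F genes as lower for [B] against [N], where it called 5.17% of all genes lower, and 15 p53 targets as lower between lines (4.12%). On thinning, group medians of members moved by less than 1 SD over cells in 80 of 80 cases, but 11 of the 78 above 0 both before and after moved by over 1.5 times. Of these, CDKN2C in p53-/- [S] went from 0.548 to 4.02 CPM, and in p53+/+ [N], where 3 of 6 cells were left, CDKN2B went from 1.93 to 0.389 and CDKN1A from 72.4 to 43.7. Without a block the SE of a stage difference reached 1.43 for CDKN1A. That fit has no term for the line, so this SE includes the difference between the lines. With 2 sums a stage, the number of sums also limits what could be called.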
